A study of Rattus norvegicus with 98 samples.

Results

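Broad acetylation domains shared by most brain regions are stretches where acetylated lysine 27 of histone H3 (H3K27ac) was called as 1 peak of 5 kb or wider in most of the rat brain regions studied. They were found in peak lists from chromatin immunoprecipitation and sequencing (ChIP-seq). Peaks of at least 5 kb on the 20 autosomes were collected from every list, and those that overlapped were joined across libraries. A region had a domain when 1 or more of its libraries held such a peak in it, and domains present in 18 or more of 24 regions were kept. The rule kept 3 of 260 broad domains. These domains were chosen by their measured peak widths, so the widths and the number of regions are given as a description.

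Male Long-Evans rats aged 2 months at the start drank fluoxetine at 18 mg per kg body weight (FT) or plain water (Sham) for 6 weeks. Fluoxetine is a selective serotonin reuptake inhibitor used as an antidepressant. Regions were punched from frozen sections, punches of several animals were pooled for each replicate, and each treatment had 2 such pools. Lists of 92 libraries were used, 46 Sham and 46 FT, with 2 libraries per treatment in 21 regions and fewer in arc, MPOA and PVN. All regions of a pool share its animals, so the regions are not independent animals, and a test over regions bears on these pools.

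Acetylation of this histone residue marks active promoters and enhancers. Most marked sites are short, since the mark sits on the few nucleosomes beside an open stretch of DNA. Where many such sites lie next to each other, or where the mark runs on into the start of a strongly transcribed gene, the signal can merge into a long domain. Such long domains are known from genes that define a cell type and from genes that nearly every cell uses. A peak caller reports one wide peak only where the signal does not drop between neighbouring sites, so the width of a peak depends on enrichment and depth as well as on chromatin.

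A peak of 5 kb or wider was rare. There were 1444 such peaks, 0.0378% of those on the autosomes. Sham lists held 0 to 49 of them (median 7, n = 46 libraries) and FT lists 2 to 60 (median 17, n = 46 libraries). FT lists were also longer, with 24429 to 54505 peaks (median 48427) against 19378 to 53135 in Sham (median 39564). The median peak was wider in FT as well, at 1400 to 1800 bp over lists (median 1600) against 1000 to 1700 bp in Sham (median 1500). Depth is unknown, since the lists hold no read counts. Of the 260 domains, 119 belonged to 1 region and 138 to 2 to 17 regions.

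**Figure D1:**
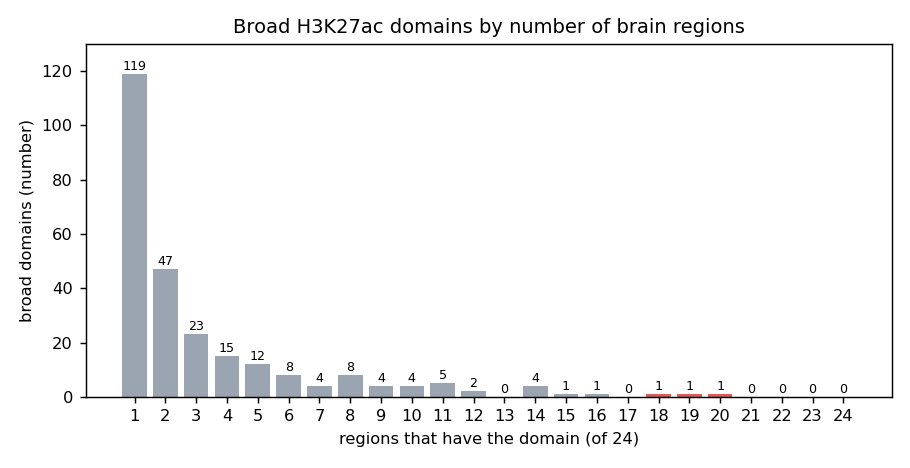
Number of broad domains (vertical axis) by the number of the 24 regions that had them (horizontal axis), with the number above each bar and the shared domains in red. Single-region domains made up 119 of 260, and no domain reached more than 20 regions.

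The most widely shared domain lay on chromosome 10 at chr10:55424106-55430309 (Rn5, 6204 bp). It was present in 20 regions, through 53 of 92 libraries. The second lay on chromosome 3 at chr3:14893442-14899112 (5671 bp) and was present in 19 regions, through 51 libraries. The third was the longest, on chromosome 12 at chr12:15831907-15839134 (7228 bp), in 18 regions and 35 libraries. Gene models for this build were not used here, and the domains go by position, without gene names. Just outside the limit stood chr3:2461708-2468212 with 16 regions and 39 libraries, and chr7:11963602-11969331 with 15 regions and 37 libraries. Presence rested on 1 library with the broad peak in some regions, most of all on chromosome 12. Regions with 2 or more such libraries numbered 17 of 19 on chromosome 3, 17 of 20 on chromosome 10 and 11 of 18 on chromosome 12. Counted that way, none of the 3 reached 18 regions.

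Although the broad peak was missing in some regions, the acetylation was not. Peaks covered part of each of the 3 domains in all 92 libraries. The highest filter score in the domain, which is the peak caller's measure of enrichment, stood at a median percentile of 98.7 within its list on chromosome 3, 97.0 on chromosome 10 and 98.7 on chromosome 12 (n = 92 libraries each). The lowest percentiles were 96.2, 87.0 and 92.1. The authors' −log10 p was at its upper limit of 200 in 69 libraries on chromosome 3, 58 on chromosome 10 and 71 on chromosome 12. The 3 domains thus scored high in most lists, but less so on chromosome 10, where the mean percentile was 91.2 in BNST and 92.5 in LH. The domains were seldom the widest peak of a list, which happened in 1 library for chromosome 3, 6 for chromosome 10 and 6 for chromosome 12.

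The domain on chromosome 3 took one of 2 forms. A single peak lay across it in 53 of 92 libraries, and in the other 39 it was broken into 2 peaks by one gap. The gap began 2307 to 3063 bp from the start of the domain and was 300 to 1200 bp long (median 800, n = 39). The widest peak was 4900 to 5400 bp when whole and under 3000 bp when split, with no library between 3000 and 4500 bp. The rule therefore separated libraries with a filled gap from libraries with an open one, rather than picking a point on a smooth scale. Only 2 whole peaks fell short of 5 kb, both from BNST in Sham, at 4900 bp each.

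The domain on chromosome 3 reached 5 kb in every library of BLA, dorDG, VTA, Raphe and Snt. These are the basolateral amygdala, the dorsal dentate gyrus, the ventral tegmental area, the raphe and the solitary tract nucleus. In BLA the widest peak was 5400 and 5200 bp in Sham and 5400 and 5400 bp in FT. In dorDG it was 5300 and 5300 bp in Sham and 5400 and 5400 bp in FT. The domain was split in every library of InsularCortex, CMA, PVN, VMH and PAG, where the widest peak of any library was 2600 to 2900 bp. In PAG, the periaqueductal gray, it was 2600 and 2300 bp in Sham and 2500 and 2200 bp in FT. Neighbouring regions could differ in form, since the broad peak was present in all 4 libraries of BLA and in none of the 4 of CMA, the centromedial amygdala.

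On chromosome 10 the domain was whole in 58 libraries, in 2 peaks in 32 and in 3 peaks in 2. Its gaps were less fixed in place, beginning 1599 to 3798 bp from the start, with a length of 300 to 2300 bp (median 1000, n = 34). Gaps that began 3000 bp or more from the start were found in 10 libraries, all of them Sham. In the first Sham pool only LS and MS had such a gap, and the rest came from the second Sham pool. Earlier gaps were found in 11 FT and 13 Sham libraries. The position of 3000 bp was chosen after the values were seen. The domain reached 5 kb in every library of InsularCortex, CMA, dorDG, venDG and MDT. In dorDG the widest peak was 5700 and 5400 bp in Sham and 5800 and 5600 bp in FT, and dorDG had the highest mean covered length of the 24 regions for this domain. The broad peak was absent from arc, VTA, PAG and LC. In LC, the locus coeruleus, the widest peak was 2900 and 2800 bp in Sham and 2700 and 2300 bp in FT.

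The domain on chromosome 12 held 1 peak in 41 libraries and was broken in 51. Of the single peaks 9 were narrower than 5 kb, while 3 of the broken ones still had a peak that wide. All of those 9 except that of NaCcore in Sham replicate 1 ended 4698 to 5038 bp from the start. Nothing was covered after that point, so the domain was not whole there. Where the domain was broken, its gap began 4600 to 5300 bp from the start in 46 libraries. In the other 5 the gap began 2800 to 3475 bp from the start. The widest single peak of the 3 domains was found here, 6600 bp in the replicate 1 FT library of InsularCortex. Its other libraries held 2800 and 6300 bp in Sham and 6100 bp in the second FT library. The broad peak was present in every library of LH (5400 and 5400 bp in Sham, 5300 and 5800 bp in FT) and of arc (6000 bp in Sham, 6000 and 5100 bp in FT). It was absent from PLC, ILC, BLA, CMA, dorDG and venDG. In dorDG the widest peak was 3600 and 3500 bp in Sham and 3900 and 3700 bp in FT, although the mean score percentile there was 99.6.

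**Figure D2:**
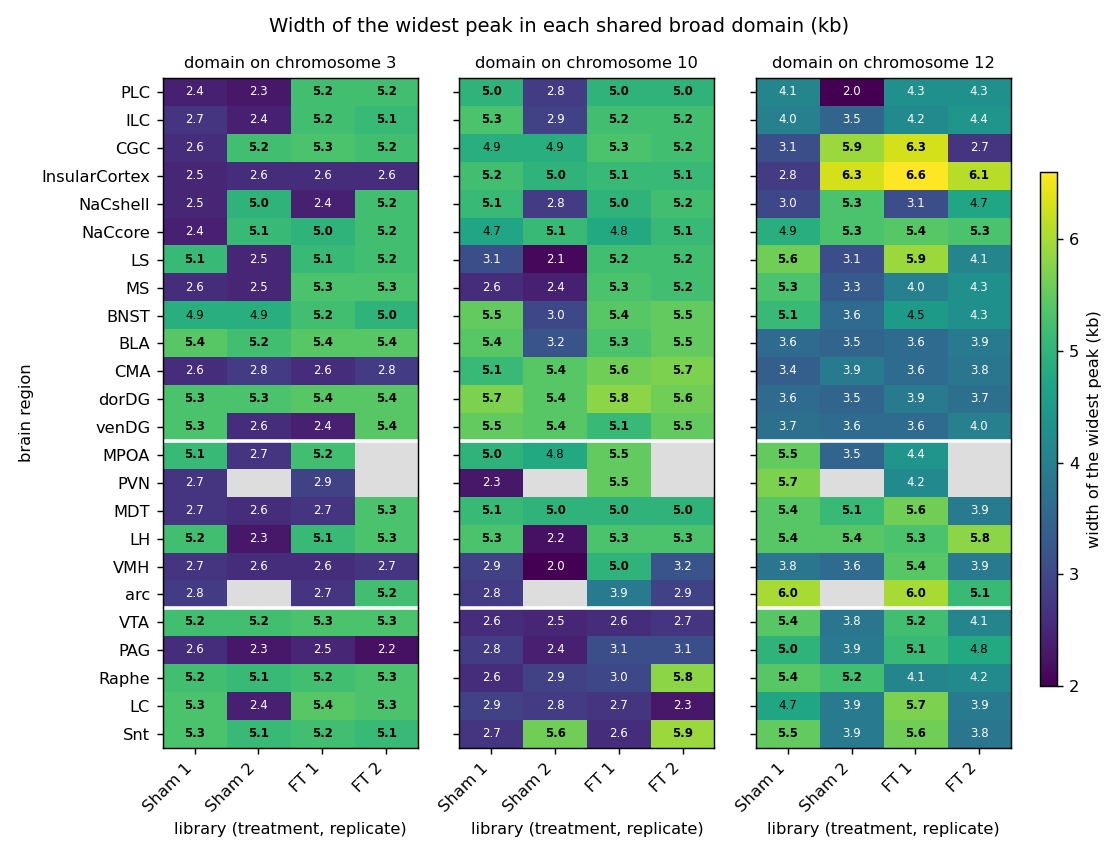
Width of the widest peak (kb, colour and printed value, bold from 5 kb) in each domain, by region (rows: telencephalon, diencephalon, midbrain and hindbrain) and library (columns). Missing libraries are grey. The chromosome 3 domain stood either at 4900 bp or more or below 3000 bp. On chromosome 12 the widest peak was 4000 bp or less in all 4 libraries of BLA, CMA, dorDG and venDG.

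Covered length, the number of bases of a domain that lie under any peak of a library, is less sensitive to the closing of a gap. Region means of covered length ran from 4400 bp in PLC to 5350 bp in BLA on chromosome 3. On chromosome 10 they ran from 4100 bp in arc to 5625 bp in dorDG, and on chromosome 12 from 3875 bp in dorDG to 6125 bp in InsularCortex. The dorsal dentate gyrus was thus longest for one domain and shortest for another. The spread of region means was 280 bp (SD, n = 24 regions) on chromosome 3, against a pooled SD of 366 bp between libraries of a region. On chromosome 10 these were 353 and 465 bp. Most neighbours in the order of regions therefore differed by less than the spread between libraries. On chromosome 12 the region means spread by 590 bp, more than the 474 bp between libraries of a region.

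The order of regions was compared between domains. The region means of chromosomes 3 and 10 had a Pearson correlation of 0.59 (Spearman 0.56, n = 24 regions). That of chromosomes 3 and 12 was -0.56 (Spearman -0.59) and that of chromosomes 10 and 12 was -0.64 (Spearman -0.53). The points share libraries and therefore depth and list length, and these values are a description. Single regions could go against them: VTA held the broad peak in all 4 libraries on chromosome 3 and in 0 on chromosome 10, and CMA and InsularCortex the reverse. Within libraries, 33 held the broad peak on chromosomes 3 and 10 together, 20 on 3 and 12, and 16 on 10 and 12. All 3 broad peaks were found in 8 libraries and none in 14, of which 12 were Sham.

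By part of the brain, the broad peak on chromosome 10 was found in 39 of 52 libraries of the telencephalon, 11 of 20 of the diencephalon and 3 of 20 of the midbrain and hindbrain. On chromosome 3 the numbers were 29 of 52, 7 of 20 and 15 of 20. On chromosome 12 they were 13 of 52, 13 of 20 and 9 of 20. Covered length differed less. The telencephalon minus midbrain and hindbrain difference (13 against 5 regions, log2 of covered length + 100 bp, limma) was -0.03 ± 0.08 (SE) on chromosome 3, 0.06 ± 0.08 on chromosome 10 and -0.08 ± 0.11 on chromosome 12. The adjusted p was 0.77, 0.60 and 0.63 (limma over 72689 features), so 0 of 3 were called in either direction, and the unadjusted p was at least 0.469. Over all features, 7.14% were called longer in the telencephalon and 10.8% longer in the midbrain and hindbrain. Presence across regions chose these domains, so nothing is read from that count.

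The comparison of FT with Sham asked whether chronic fluoxetine went with longer domains. The broad peak was found in 33 FT and 18 Sham libraries on chromosome 3, in 34 FT and 19 Sham libraries on chromosome 10, and in 16 FT and 19 Sham libraries on chromosome 12 (46 libraries per treatment). Regions that held it in FT alone numbered 6, 6 and 2 in that order, and regions that held it in Sham alone 0, 0 and 6. FT libraries by themselves would have given 19, 20 and 12 regions and Sham libraries 13, 14 and 16, so the domains on chromosomes 3 and 10 reached 18 regions through FT. The FT minus Sham lengths of the members are therefore a description, and nothing is read from the counts of members called. FT lists were longer and their peaks wider in general, as given above, and lengths scaled by the median peak width of the list are given below.

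Covered length on chromosome 3 ran from 3300 to 5400 bp in Sham (median 4832, n = 46 libraries) and from 4300 to 5400 bp in FT (median 5200, n = 46). The ranges overlapped, with the lowest values in Sham. The mean over regions was 5066 bp in FT and 4739 bp in Sham, a difference of 327 ± 363 bp (SD, n = 24 regions). FT was longer in 21 regions and shorter in 3. Both FT libraries lay above both Sham libraries in 8 of 21 regions and below them in 0. The largest difference was in PLC, the prelimbic cortex, with 3900 and 3300 bp in Sham and 5200 and 5200 bp in FT. The second Sham library there had one of the shortest lists, with 19629 peaks.

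On chromosome 10 covered length ran from 3000 to 5700 bp in Sham (median 4950, n = 46 libraries) and from 4200 to 5900 bp in FT (median 5200, n = 46). The mean over regions was 5199 bp in FT and 4745 bp in Sham, a difference of 454 ± 399 bp (SD, n = 24 regions). FT was longer in 20 regions, shorter in 3 and equal in 1. Both FT libraries lay above both Sham libraries in 7 of 21 regions and below them in 0. In MS, the medial septum, Sham held 4500 and 4300 bp and FT 5300 and 5200 bp. In Raphe, Sham held 4900 and 4851 bp and FT 5646 and 5800 bp. Without the libraries of the second Sham pool the difference was 257 bp.

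On chromosome 12 covered length ran from 3600 to 6300 bp in Sham (median 5100, n = 46 libraries) and from 3700 to 6600 bp in FT (median 5350, n = 46). The mean over regions was 5182 bp in FT and 5033 bp in Sham, a difference of 149 ± 378 bp (SD, n = 24 regions), with FT longer in 16 regions and shorter in 7. Without the second Sham pool the difference was -5.67 bp. Both FT libraries lay above both Sham libraries in 2 of 21 regions, PLC and BNST, and below them in 2, BLA and Raphe. In BLA, Sham held 4400 and 4400 bp and FT 4000 and 3900 bp.

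These counts stand against a general lengthening in FT. Of 72689 features tested (the 260 domains and shorter elements covered in at least 10 libraries), 48.3% were called longer in FT and 0.922% shorter (exact two-sided sign test over regions, Benjamini-Hochberg adjustment). By that test 2 of the 3 shared domains, those on chromosomes 3 and 10, were longer and 0 shorter, and nothing is read from these counts, since FT libraries had a larger part in choosing those domains. Without the second Sham pool 17.8% of features were called longer, and of the shared domains the one on chromosome 3. Among the other 257 broad domains, 161 (62.6%) were called longer and 0 shorter. Among elements covered in every region, 19214 of 22132 (86.8%) were called longer. The differences of 327, 454 and 149 bp stood beside a median of 224 bp over the other tested features and of 439 bp over the other broad domains. Over pairs of a feature and a region, both FT libraries lay above both Sham libraries in 25.3% and below them in 1.87%. For the 3 shared domains this was 8, 7 and 2 of 21 regions above and 0, 0 and 2 below.

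When covered length was divided by the median peak width of its own list, the direction of all 3 differences turned. Chromosome 3 then held 3.11 median widths in FT and 3.20 in Sham, with FT below Sham in 18 regions and above it in 6. Chromosome 10 held 3.19 in FT and 3.21 in Sham (above Sham in 12 and below it in 11). Chromosome 12 held 3.18 in FT and 3.41 in Sham, again below Sham in 18 and above it in 6. On that scale 0 of 3 were called by the exact sign test, and 2 of 3 passed 0.05 unadjusted, against 18.6% of all features called longer and 2.69% called shorter. Longer domains and wider peaks were found together in the FT lists. The part of list width, depth and enrichment in the difference was not tested, and the scaling is a description.

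**Figure D3:**
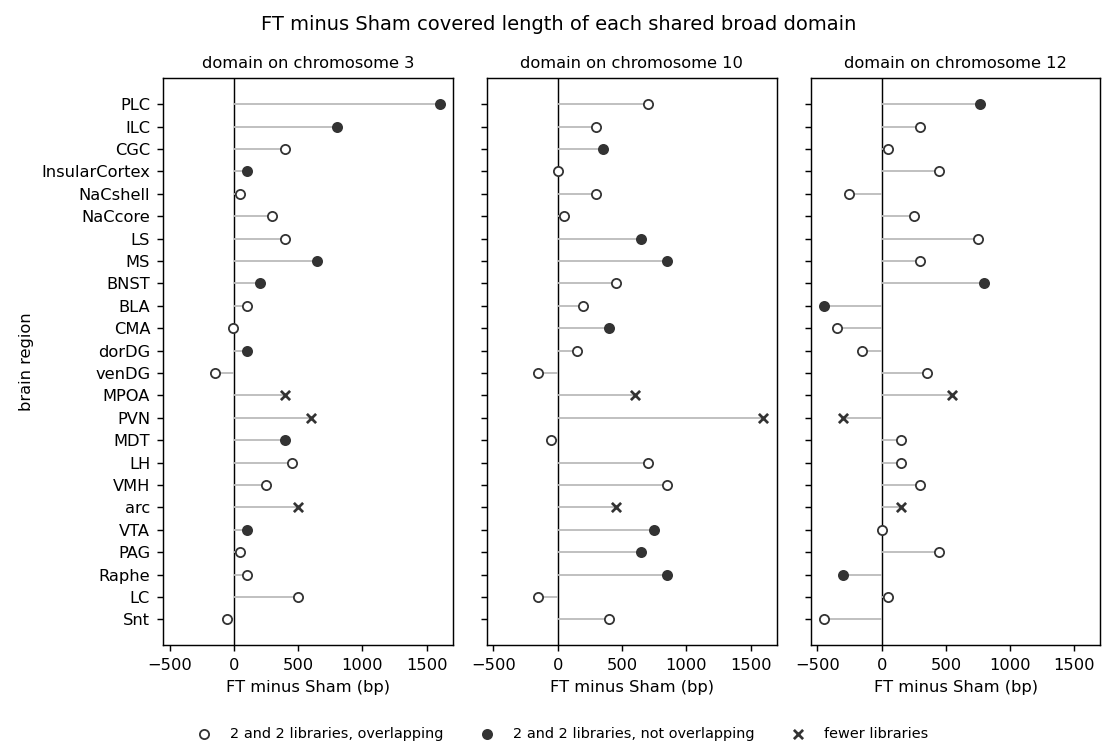
FT minus Sham covered length (bp, horizontal axis) of each domain by region (vertical axis), as difference of treatment means. Filled points mark regions where the 2 FT and the 2 Sham libraries did not overlap, and crosses mark regions with fewer libraries. On chromosome 3, 21 of 24 regions lay above 0, on chromosome 10, 20, and on chromosome 12, 16.

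The libraries that made the difference could be followed by pool. Over the 21 regions with all libraries, covered length on chromosome 3 averaged 4852 ± 412 bp (SD, n = 21 regions) in the first and 4703 ± 501 bp in the second Sham pool. The FT pools held 5017 ± 352 and 5143 ± 268 bp. On chromosome 10 the Sham pools held 5043 ± 365 and 4603 ± 666 bp and the FT pools 5198 ± 253 and 5233 ± 375 bp. Both FT pools lay above both Sham pools for these domains, which FT libraries had a larger part in choosing. How many of all features have that order of pools was not counted, and nothing is read from it. On chromosome 12 the Sham pools held 5110 ± 623 and 4800 ± 639 bp and the FT pools 5225 ± 783 and 4986 ± 743 bp, so that they overlapped. The broad peak on chromosome 12 was found in 11 regions of the first FT pool and 3 of the second.

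**Figure D4:**
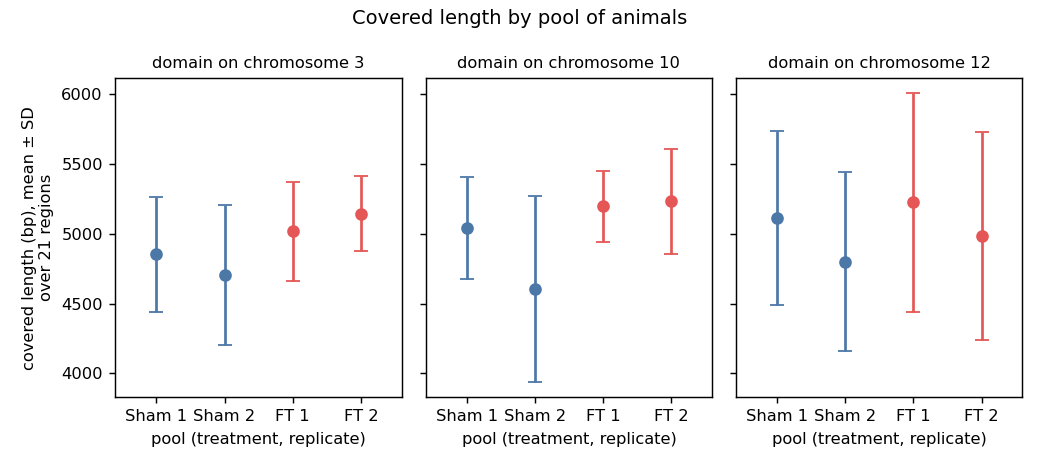
Covered length (bp, vertical axis that does not start at 0) in each pool, as mean and SD over the 21 regions with 2 libraries per treatment. On chromosome 10 the second Sham pool, at 4603 bp, stood lowest, and on chromosome 12 the pools overlapped.

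Domains were also drawn from one replicate number and compared in the other. With domains drawn from replicate 2 libraries alone, 1 domain reached 18 regions, at chr3:14893442-14899112. In the replicate 1 libraries it measured 4994 bp in FT and 4817 bp in Sham, a difference of 178 bp, longer in 14 regions and shorter in 7. Each such comparison rests on 1 pool per treatment, so lengths are given without a p. The median difference over all features tested in the replicate 1 libraries was 152 bp. The domain on chromosome 10 drawn from replicate 2 reached 17 regions and differed by 237 bp, longer in 13 regions and shorter in 9. Replicate 1 libraries alone gave 0 domains in 18 regions and 4 in 15 to 17, which the rule would not keep. In replicate 2 libraries, where 69.9% of all features were called longer, chr3:14893504-14899112 was longer in FT by 437 bp and chr10:55424402-55430309 by 625 bp. Both were longer in 19 regions and shorter in 0. Those regions share 1 pool per treatment, so nothing is read from the share of features called. In the same libraries chr3:2461708-2468212 was longer by 800.0 bp, in 17 regions against 4. The domain on chromosome 12 was longer by 186 bp, in 11 regions against 8. Whether the first and second pools differed in this was not tested. Without the 4 lists of under 25000 peaks, one in FT and the others in Sham, the 3 differences in all libraries were 310 bp on chromosome 3, 408 bp on chromosome 10 and 134 bp on chromosome 12.

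Most of the difference on chromosomes 3 and 10 lay in the gaps and less at the ends. On chromosome 3 the distance from the first to the last covered base was 5266 bp in FT and 5193 bp in Sham, a difference of 72.8 bp, while the bases left uncovered inside were 200 bp in FT and 454 bp in Sham (means over 24 regions). On chromosome 10 the outer distance differed by 102 bp and the inner gaps measured 215 bp in FT and 567 bp in Sham. On chromosome 12 the outer distance differed by 113 bp and the inner gaps by -35.4 bp. Libraries with no peak in the right part of the chromosome 12 domain had a shorter outer distance and no inner gap there. At the lowest point of the chromosome 3 domain, 200 bp after its centre, a peak was present in 33 FT and 21 Sham libraries. On chromosome 12 the lowest point lay 1700 bp after the centre, with 15 FT and 22 Sham libraries. The FT excess there was at the left end, where 33 FT and 15 Sham libraries had a peak 2500 bp before the centre.

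**Figure D5:**
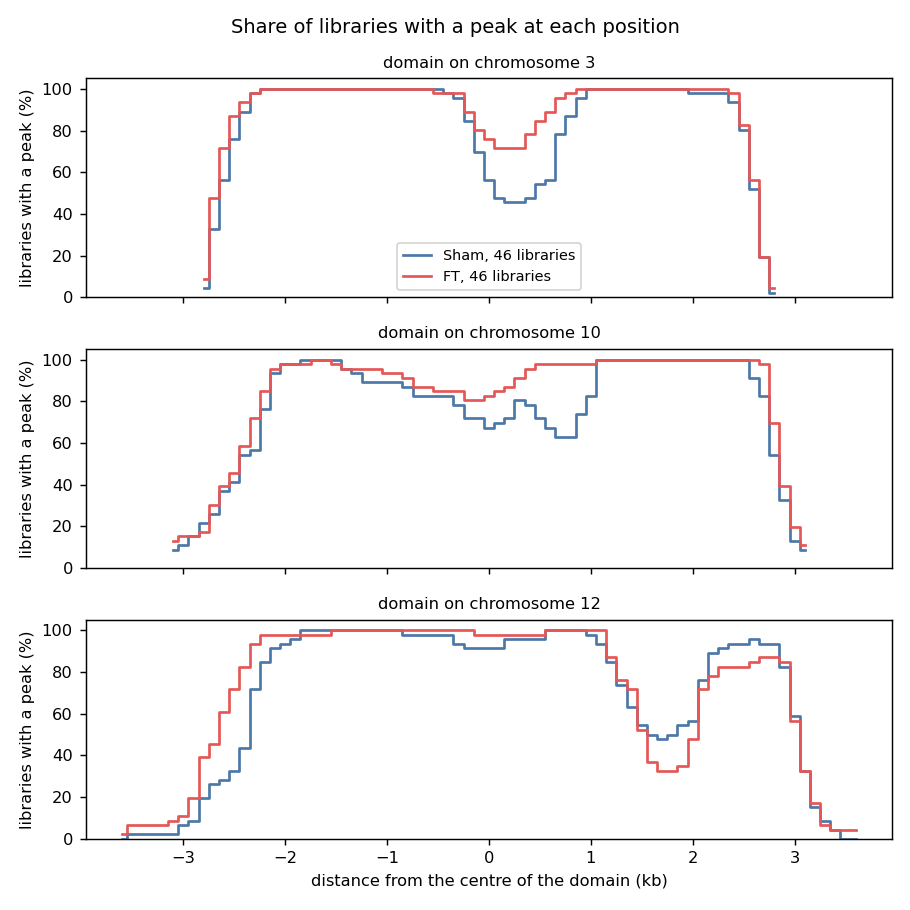
Share of the 46 Sham and the 46 FT libraries with a peak (%) at each position, in steps of 100 bp from the centre of each domain (kb). The dip near the middle of the chromosome 3 domain was filled in 33 FT and 21 Sham libraries, and the dip of the chromosome 12 domain lay to the right of its centre.

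Enrichment was compared as a rank within the list. The percentile of the highest filter score was higher in FT by 0.287 points on chromosome 3 and by 1.39 points on chromosome 10. On chromosome 12 the FT minus Sham difference was -0.108 points. The median over all features was 5.15 points, while these domains stood near the upper end of the scale in both treatments. Scores as deposited were higher in FT, with a median of 626 against 407 on chromosome 3, 515 against 343 on chromosome 10 and 603 against 423 on chromosome 12 (n = 46 libraries per treatment). They depend on the library, so no test was made on them. Over the 46 Sham libraries, covered length on chromosome 3 had a Pearson correlation of 0.60 with the median peak width of the list (Spearman 0.50), and over the 46 FT libraries of 0.29 (Spearman 0.23). For chromosome 12 these were 0.16 (Spearman 0.18) and 0.10 (Spearman 0.01). The points share pools, and the values are a description.

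The surroundings of the 3 domains differed. The domain on chromosome 3 had a second broad domain 2745 bp after its end, at chr3:14901858-14908512, which was present in 11 regions and 22 libraries. The nearest other broad domain to that on chromosome 10 lay 277215 bp after it and was present in 1 region. On chromosome 12 the nearest lay 3446703 bp after it, and no other broad domain began within 1000000 bp. Shorter elements were close in each case. An element covered in 92 libraries ended 3900 bp before the domain on chromosome 10, and one covered in 90 libraries began 381 bp after the domain on chromosome 12.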

How the data were processed

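H3K27ac ChIP-seq peak lists of 94 libraries were read, and the 2 HB libraries were left out of all comparisons. Per the labels, BWA was used and the genome was rn5, and the authors called peaks with DFilter on each library. No source used here gives software versions. The deposited lists give a filter score and a normalised tag count, both read as a score and used for ranks or as a description, a −log10 p-value from 4 to 200, and a false discovery rate in percent, which was 0 throughout. The study compared treatments on reads per peak, and since the lists hold no reads, lengths were compared here. Peak widths were multiples of 100 bp. No counting interval was computed, since depth is unknown.

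Starts were read as counting from 0 and are printed counting from 1. Features were the 260 broad domains and the stretches covered by 2 or more libraries outside them, tested if covered in 10 or more libraries (72689 of 128022). The mean FT minus mean Sham covered length of each region was tested over the 24 regions by a two-sided exact sign test with ties dropped. Regions of the telencephalon were compared with those of midbrain and hindbrain by limma on log2 of the region mean + 100 bp. Adjustment was by Benjamini-Hochberg over all features with a threshold of 0.05. Both procedures were run on simulated data in which regions were independent. The regions of a pool share its animals, so this does not measure how often calls here are false. Python 3.11.15, numpy 2.4.6, pandas 2.3.3, scipy 1.17.1, matplotlib 3.10.9, R 4.3.3 and limma 3.58.1 were used.

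The naming rule took the 6 shared domains of largest median covered length and the called ones of largest difference, and with 3 members all were named. The members, tests and alternatives were chosen with earlier results of these data known. Per the study's methods, libraries of one replicate number were processed in parallel, which pairs FT with Sham. Their deviations from the treatment mean had a mean correlation of 0.02 in 21 regions, from -0.20 to 0.30. No pair of lists was identical. Alternatives were other widths, region counts and list lengths, a stricter p, leaving out each pool, the replicate block, other measures of length, no filter and limma.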

Additional observations from a re-analysis of the deposited data

Results flagged for a closer look

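In the midbrain and hindbrain, PAG stood apart on chromosome 3: its mean covered length was 4425 bp, against 5100 to 5250 bp in the other 4 regions, a gap larger than Dixon's limit for 5 values. Of 6 groups of regions looked at, 1 was marked in this way, and chance marks about 1 in 20.

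On chromosome 12, both FT libraries lay above both Sham libraries in 2 of 21 regions and below them in 2. Over all pairs of a feature and a region these shares were 25.3% and 1.87%. FT minus Sham covered length of the chromosome 12 domain was 764 bp in PLC and 800.0 bp in BNST, where both FT libraries lay above both Sham libraries. It was -450 bp in BLA and -300 bp in Raphe, where both lay below. The difference between these regions was not tested.

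HB, which entered no comparison, had 1 library per treatment. The FT HB library covered 5300 bp of the domain on chromosome 3, 5796 bp of that on chromosome 10 and 5000 bp of that on chromosome 12. The Sham HB library covered 0 bp of each, and its list stood apart, with a median peak width of 500 bp against 1600 bp in the FT HB list.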

How the results depend on the processing

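The number of shared domains followed the rule closely: it was 53 with broad peaks from 4 kb, 0 from 6 kb, 0 when 2 libraries of a region had to hold the broad peak, and 2 without any one of the 4 pools. Those called longer in FT, 2 of 3 as given above without a reading, were 34 of the 53 at 4 kb, where 48.3% of all features were called longer. Nothing is read from that count either. They were 0 with no domain left at 6 kb or at 21 of 24 regions. With covered length divided by the list's median peak width the count was 0, against 18.6% of all features called longer. The median difference, 327 bp as reported, became -145 bp after rescaling to the median list width of 1600 bp (-145 bp on chromosome 3, -28.4 bp on chromosome 10 and -371 bp on chromosome 12). The cause was not tested. The width of the widest peak gave a median of 821 bp. Leaving out a pool gave 249 to 392 bp, and -5.67 to 337 bp for chromosome 12. Domains drawn from one replicate number and compared in the other numbered 0 from replicate 1 and 1 from replicate 2, which differed by 178 bp. The percentile of the filter score, an alternative chosen after seeing the data, gave 1 call, against 28.2% of all features called higher in FT. On chromosome 12 its difference was -0.108 points. With the replicate block, which pairs FT and Sham by number, the count stayed at 2, with no call changed, against 60.1% of all features called longer. The median was 300 bp (299.8). None was called shorter in FT, or longer in either part of the brain, under the alternatives run for them. No median could be given where no domain was left. Lists without counts limit what depth can be shown to do.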

Other observations

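Chromosome X was outside the rule. It held 8 broad domains, the most widely shared at chrX:107291436-107297934 in 13 regions and 28 libraries. The next, at chrX:107300725-107306335, lay close behind it and was present in 9 regions and 20 libraries.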
